A study of Mus musculus with 3 samples.

Results

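The genes described here encode the machinery of oxidative phosphorylation, together with every other gene of the mitochondrial genome. They were chosen by symbol: all rows beginning with mt-, and all rows whose symbols name subunits or factors of the Nduf, Sdh, Uqcr, Cox4 to Cox8 and Atp5 series, with pseudogene symbols dropped. This gave 128 of the 46983 genes in the count table. The mitochondrial genome contributed 37 of them, namely 13 mRNAs, 2 rRNAs and 22 tRNAs. The nuclear genome contributed 91, of which 81 are subunits of the 5 complexes, 7 are assembly factors of complex I (Ndufaf1 to Ndufaf7) and 3 (Atp5s, Atp5sl and Cox7a2l) are related factors. The nuclear subunits divided into 36 of complex I, 4 of complex II, 8 of complex III, 18 of complex IV (with Ndufa4, now counted as a subunit of that complex) and 15 of complex V. The 13 mitochondrial mRNAs divided into 7 of complex I, 1 of complex III, 3 of complex IV and 2 of complex V, with none for complex II.

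The samples were leptomeninges, the thin inner coverings of the brain, dissected from mice, dissociated and sorted by flow cytometry into a fraction labelled as enriched for pia. All mice had been treated with vehicle. The 3 libraries form a single group, so no treatment was compared, and the comparisons below are between gene classes and between libraries 1, 2 and 3. The vehicle, the strain, sex and age of the mice and the sorting gate are not given in the sources used here, and nothing states that the 3 libraries came from separate animals, so the spread between them may be partly technical.

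Oxidative phosphorylation couples the oxidation of NADH and succinate to ATP synthesis in the inner mitochondrial membrane. Complexes I, III and IV pump protons, complex II feeds electrons from succinate, and complex V (ATP synthase) uses the proton gradient. Most subunits are made in the cytosol from nuclear genes, whereas a few core subunits, with the rRNAs and tRNAs needed to translate them, are transcribed inside mitochondria from a small circular genome; stretches of that genome have also been copied into nuclear chromosomes.

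Such a copy bears on what these counts can show, so its sequence is given first. On chromosome 1, positions 24611535 to 24616197 of GRCm38 (minus strand, 4663 bases), the annotation GENCODE M21 lists pseudogenes that match the mitochondrial genome from within mt-Co1 to within mt-Nd4. Gm28661 was identical to mt-Co2 over 681 bases, Gm28437 to mt-Co3 over 783 bases, Gm10925 to mt-Atp6 over 678 bases, Gm10222 to mt-Nd4l over 294 bases and Gm28439 to the first 876 bases of mt-Nd4. Gm28438 matched mt-Nd3 over 345 bases with 1 mismatch, T3C, and Gm29216 matched the last 483 bases of mt-Co1 with 1 mismatch, A1066T. Positions are counted from 1 at the 5′ end of the mitochondrial gene, with the mitochondrial base first. The first 40 bases of mt-Co2 and its copy show complete identity, and those of mt-Nd3 and its copy hold the single difference, in capitals.
mt-Co2: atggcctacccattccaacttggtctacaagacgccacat
Gm28661: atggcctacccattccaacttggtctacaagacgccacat
mt-Nd3: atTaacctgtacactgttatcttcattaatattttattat
Gm28438: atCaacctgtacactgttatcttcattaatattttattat
The mt-Co2 stretch lies at chrM:7013-7052 (plus strand) and its copy at chr1:24615526-24615565 (minus strand). The mt-Nd3 stretch lies at chrM:9459-9498 (plus strand) and its copy at chr1:24613080-24613119 (minus strand).

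The reads were pairs of 50 bases, so each gene was cut into all of its 50-base windows and each window was looked up in the transcripts of every other annotated gene. All windows of mt-Co2 (100%) were also found elsewhere, as were 99.9% of those of mt-Co3, 99.5% of mt-Atp6, 98.8% of mt-Nd4l and 98.0% of mt-Nd3. The share was 62.2% for mt-Nd4 and 51.1% for mt-Co1. It was 8.19% for mt-Nd2, 7.61% for mt-Nd5 and 1.04% for mt-Rnr2, and 0 for mt-Nd1, mt-Nd6, mt-Cytb and mt-Rnr1. These shares count annotated transcripts only and are therefore lower bounds.

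Of the genes that lie in the copied stretch, 5 were nearly without counts. In libraries 1, 2 and 3, mt-Co2 (a core subunit of complex IV) had 0, 2 and 4 counts, mt-Co3 (another core subunit) had 3, 2 and 4, and mt-Atp6 (the proton channel subunit of complex V) had 3, 5 and 2. mt-Nd4l had 1, 0 and 0 counts, and mt-Atp8, which overlaps mt-Atp6 by 43 bases, had 0 in all 3 libraries. These 5 mRNAs did not pass the filter on low counts. Not all genes of the stretch were so low: mt-Nd3, also inside it, had 1027, 759 and 843 counts, and mt-Nd4, whose first 876 bases lie in it, had 4886, 40689 and 30796. A count of 0 allows up to 3 counts, or 0.152, 0.101 and 0.116 CPM (counts per 1000000 scaled gene counts) in libraries 1, 2 and 3. The chromosome 1 copies were as low: Gm28438 had 6, 10 and 10 counts, Gm28437 had 4, 5 and 1, Gm29216 had 1, 2 and 8, Gm10925 had 0, 3 and 2, Gm28661 had 1, 0 and 0, and Gm28439 and Gm10222 had none (Gm10222 was added after its value was seen). The deposited table gave 16.9%, 15.3% and 17.4% of its total in libraries 1, 2 and 3 to alignments that were not unique, which enter no gene. How many of those alignments belong to the copied stretch was not tested, and a value near 0 for a gene in it is not read here as absence of its RNA.

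mt-Atp8 was at 0 although none of its 50-base windows lay in another annotated transcript. Its last 43 bases (chrM:7927-7969, plus strand) open mt-Atp6 and were identical to the first 43 bases of Gm10925 (chr1:24614609-24614651, minus strand), while the remaining bases of mt-Atp8 precede the annotated start of Gm10925. The sequences below carry the start codon of mt-Atp6 in capitals.
mt-Atp8: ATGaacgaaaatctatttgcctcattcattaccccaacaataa
Gm10925: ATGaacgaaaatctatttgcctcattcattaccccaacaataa
Whether the copy continues past the annotated pseudogene was not tested, since no genome sequence was used here.

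**Figure D1:**
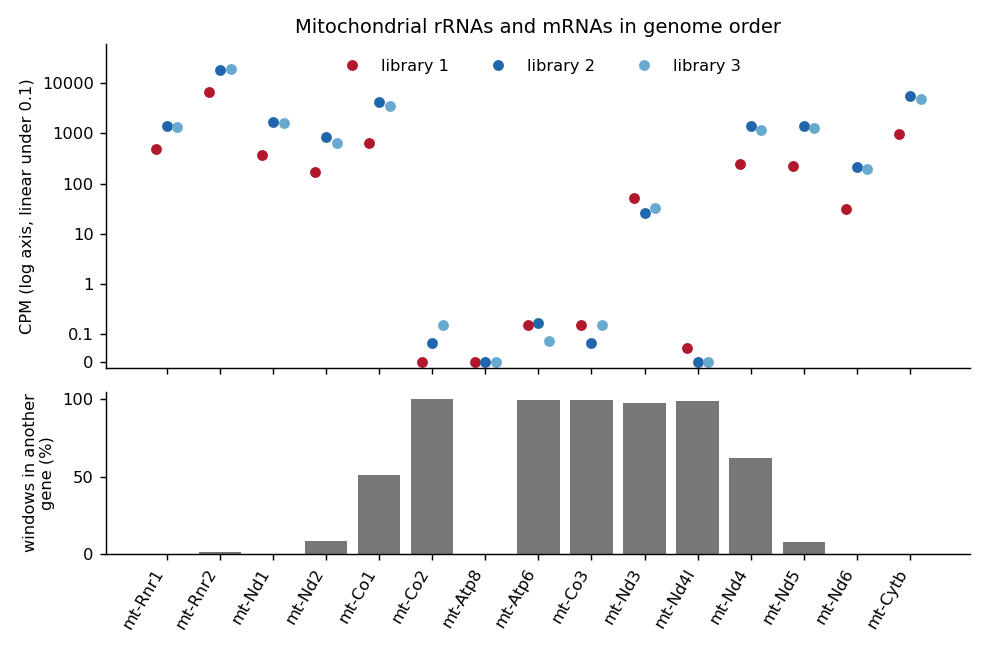
CPM of the 2 rRNAs and 13 mRNAs of the mitochondrial genome in the 3 libraries, in genome order (upper panel, log axis that is linear under 0.1), above the percentage of each gene's 50-base windows that are also found in another annotated gene (lower panel). The genes from mt-Co2 to mt-Co3 and mt-Nd4l lie near 0 in every library, and library 1 is the lowest for the other genes with the exception of mt-Nd3.

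The libraries held 21002860, 28704952 and 25338616 gene counts. Fibroblast markers were abundant in each: the summed level of Col1a1, Col1a2, Col3a1, Dcn, Lum and Pdgfra was 23530, 29180 and 25360 CPM in libraries 1, 2 and 3. Library 1 stood apart in other markers. The summed level of 8 choroid plexus markers was 128, 3317 and 5043 CPM, led by Ttr at 32.7, 1598 and 2537 CPM, and that of 8 macrophage markers was 11.9, 240.0 and 693 CPM. Markers of red blood cells were summed to 821, 206 and 341 CPM, highest in library 1. Library 2 had the lowest sum of 6 mural cell markers (Acta2, Tagln and 4 others), at 3215, 2763 and 4914 CPM. Of these 6, however, 2 were lower in library 1 than in library 2, and 1 was higher in library 2 than in library 3. The sum of 6 Schwann cell markers was also lowest in library 2, at 3125, 2718 and 4599 CPM. Of those 6, 1 was lower in library 1 than in library 2. Reads that did not align were 20.1%, 10.7% and 13.2% of the table's total.

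Of the 128 genes, 99 passed the filter and were tested: 10 of the 37 mitochondrial genes (8 mRNAs and both rRNAs), 79 of the 81 nuclear subunits, all 7 assembly factors and all 3 related factors. The 29 not tested were the 22 tRNAs, the 5 mRNAs above, Cox7b2 and Cox8c. Genes that differed between the 3 libraries more than genes of like abundance were sought with a goodness-of-fit test in edgeR, which used the trended dispersion and adjusted p by Benjamini-Hochberg over all genes tested. It called 63 of 14409 genes, or 0.437%. Among the genes described here it called mt-Nd5 and mt-Nd6, 2 of the 10 mitochondrial genes tested, and 0 of the 79 nuclear subunits, of which 11 had an unadjusted p under 0.05. At that unadjusted level stood 20 of the 99 tested genes, including 9 of the 10 mitochondrial ones, against 7.04% of all genes tested. A gene that was not called is not thereby shown to be stable. Both calls were lost when any 1 library was left out (0 of the genes described here were then called) and with a common dispersion; plain library totals called 5, adding mt-Co1, mt-Cytb and mt-Nd4.

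Mitochondrially encoded RNA was lowest in library 1. The 13 mRNAs made up 0.255%, 1.58% and 1.36% of gene counts in libraries 1, 2 and 3 (mean 1.07% ± 0.711, SD, n = 3). The 95% binomial intervals (Wilson) were 0.253% to 0.257% in library 1, 1.58% to 1.59% in library 2 and 1.35% to 1.36% in library 3; these cover counting error only, because reads amplified by PCR are not independent molecules. The 2 rRNAs made up 0.663%, 2.02% and 2.10% (1.60% ± 0.809). Nuclear subunits made up 1.31%, 0.933% and 1.27% (1.17% ± 0.209), lowest in library 2.

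The balance between both genomes differed accordingly. Counts of mitochondrial mRNAs relative to those of nuclear subunits stood at 0.194, 1.70 and 1.07 in libraries 1, 2 and 3. The ratio of rRNA to mRNA counts of the mitochondrial genome was 2.60, 1.28 and 1.55, highest in library 1. The mRNA counts in both ratios, and in the shares above, hold almost nothing from the 5 mRNAs that were nearly without counts. Many windows of mt-Nd3, mt-Nd4 and mt-Co1 are also shared. The size of these values therefore describes the mRNA reads that were counted, which may understate mitochondrial mRNA. In bulk samples fewer cells of a type and less RNA per cell cannot be told apart, and here neither can be told apart from a difference in library preparation.

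**Figure D2:**
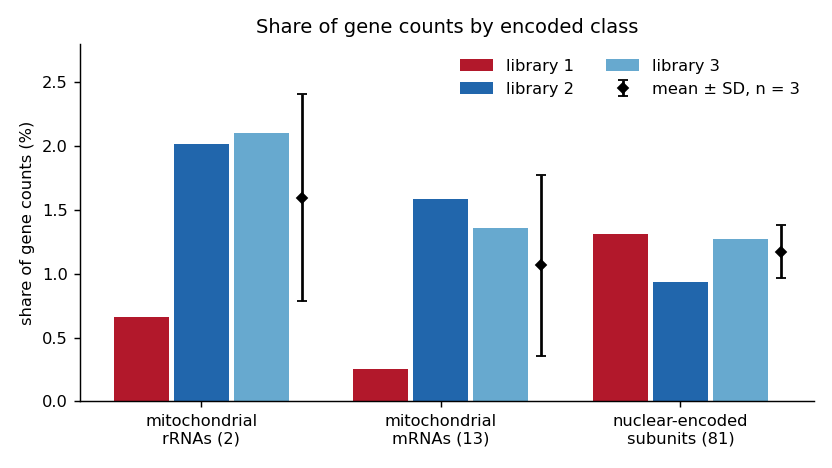
Share of gene counts taken by the 2 mitochondrial rRNAs, the 13 mitochondrial mRNAs and the 81 nuclear-encoded subunits, as bars per library, with the mean and SD of the 3 libraries as a diamond with error bars. Library 1 is lowest for both mitochondrial classes, at 0.663% and 0.255%, and library 2 is lowest for the nuclear class, at 0.933%.

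Among the complex I mRNAs of the mitochondrial genome, mt-Nd6 (chrM:13552-14070, minus strand), the only mRNA on the light strand, measured 30.8, 214 and 194 CPM in libraries 1, 2 and 3 (edgeR goodness of fit, adjusted p = 0.0210). mt-Nd5 (chrM:11742-13565, plus strand), a proton-pumping subunit, measured 221, 1410 and 1259 CPM (edgeR, adjusted p = 0.0455). Both were lowest in library 1, by 6.96-fold and 6.38-fold against library 2, while libraries 2 and 3 lay close together. The ends of mt-Nd5 and mt-Nd6 overlap by 14 bases on opposite strands, and the strand setting of the counting is not given in the sources used here. The other subunits of the membrane arm were similar: mt-Nd1 measured 377, 1686 and 1625 CPM. For mt-Nd2 the values were 173, 849 and 630 CPM, and for mt-Nd4, whose first part lies in the copied stretch, 248, 1371 and 1191 CPM. None of these 3 passed the adjusted threshold.

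The complex III and IV mRNAs of the mitochondrial genome showed the same order. mt-Cytb, the cytochrome b of complex III and the most abundant mitochondrial mRNA, measured 964, 5454 and 4883 CPM (edgeR, adjusted p = 0.0978). mt-Co1, the catalytic subunit of complex IV, measured 651, 4299 and 3505 CPM (edgeR, adjusted p = 0.0568). The rRNA of the large mitochondrial ribosomal subunit, mt-Rnr2, measured 6565, 18110 and 19270 CPM, and that of the small subunit, mt-Rnr1, 487, 1428 and 1351 CPM. Library 1 was lower by 2.76-fold and 2.93-fold against library 2 for these rRNAs, a smaller difference than for any of the 7 mRNAs that were lower in library 1, which ranged from 4.47-fold (mt-Nd1) to 6.96-fold (mt-Nd6).

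The exception was mt-Nd3, a small membrane subunit of complex I. It measured 52.0, 25.6 and 32.6 CPM (1027, 759 and 843 counts), highest in library 1. Only 6 of its 299 windows were absent from other annotated genes, those at its ends, the first of which hold the mismatch shown above, so its level is uncertain. Its counts were nonetheless unlike the 0 to 4 counts of mt-Co3 and mt-Nd4l on either side of it; how the authors' alignment treated such pairs is not given in the sources used here. Of the 22 tRNAs, 7 had any count. The highest was mt-Tq (glutamine) with 30, 4 and 5 counts, followed by mt-Tp (proline) with 7, 0 and 0, mt-Tm (methionine) with 2, 2 and 1, and mt-Ti (isoleucine) with 3, 0 and 0. The tRNAs summed to 44, 7 and 8 counts, most of them from mt-Tq, which is too few to compare between libraries.

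Between pairs of libraries each gene was compared as the log2 ratio of CPM + 1, with 1 library on each side and hence no test. Over the 10 mitochondrial genes the median ratio of library 1 to library 2 was -2.38 and that of library 1 to library 3 was -2.18, against medians of 0.00 and -0.01 over all genes tested. In both comparisons 9 of the 10 were at least 2-fold lower in library 1, where 13.4% and 11.5% of all genes tested were. Between libraries 2 and 3 the median was 0.15, and none of the 10 differed by 2-fold.

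The nuclear subunits did not follow. Their median ratio of library 1 to library 2 was 0.72; 67 of 79 were higher in library 1 (50.0% of all genes tested were), 25 of 79 at least 2-fold (5.4%) and 1 of 79 at least 2-fold lower. Against library 3 the median was 0.11 (-0.01 with plain library totals, so its sign rests on the scaling), with 4 of 79 at least 2-fold higher in library 1 (4.21% of all genes tested) and 3 at least 2-fold lower. Library 2 was below library 3 in 75 of the 79 (49.5% of all genes tested), with a median ratio of -0.58; 4 were at least 2-fold lower (2.44%) and 0 at least 2-fold higher (2.25%). Between these libraries the median was -0.96 for 6 mural cell markers, -1.02 for 6 Schwann cell markers and -1.49 for 6 macrophage markers. The 6 fibroblast markers went the other way, at 0.19. Cytosolic ribosomal proteins had a median of -0.555, with library 2 lower in all 77 tested. The part of any of these cell types in the difference was not tested. The order of the libraries thus differed between the genomes: library 1 was lowest for mitochondrial genes and library 2 for most nuclear subunits.

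The split between the genomes could be read within complexes I, III and IV, since complex II has no mitochondrial mRNA and neither of those of complex V was tested. For the nuclear subunits of complex I the median ratio of library 1 to library 2 was 0.79 and 33 of 36 were higher in library 1. The medians were 0.51 in complex II (4 of 4 higher), 0.50 in complex III (5 of 8), 0.65 in complex IV (14 of 16) and 0.74 in complex V (11 of 15). The 5 mitochondrial mRNAs of complex I tested other than mt-Nd3, mt-Cytb of complex III and mt-Co1 of complex IV lay on the opposite side of 0 from the median of their complex, and mt-Nd3 on the same side. The complex I assembly factors, which act on the complex but are not part of it, had a median of -0.05, with 3 of 7 higher in library 1.

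**Figure D3:**
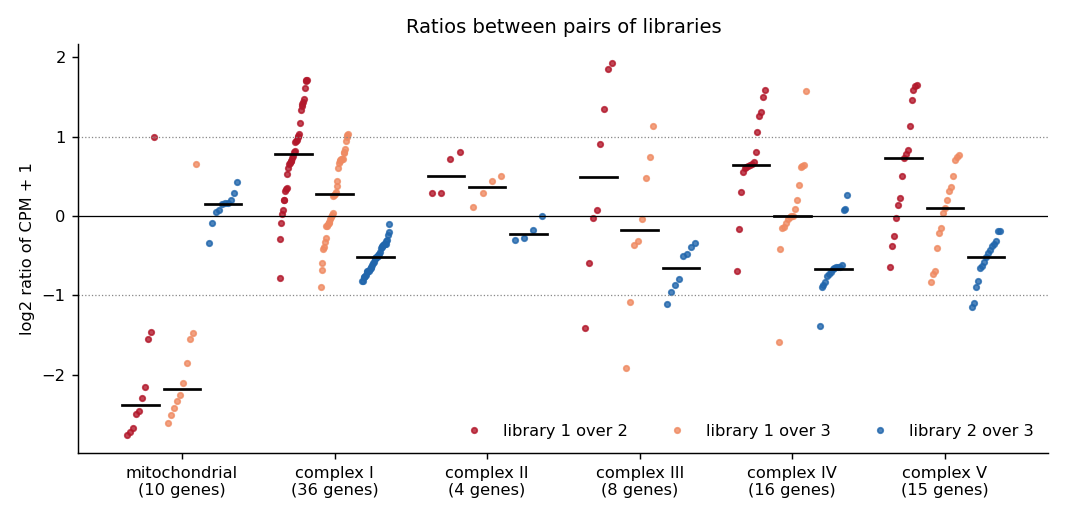
Log2 ratio of CPM + 1 between each pair of libraries for the 10 mitochondrial mRNAs and rRNAs tested and for the nuclear subunits tested of each complex. Points are genes, black lines medians, and dotted lines mark a 2-fold difference; the mitochondrial genes other than mt-Nd3 lie below -1 in both comparisons with library 1, and most nuclear subunits lie above 0 against library 2.

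The highest and lowest nuclear ratios of library 1 to library 2 included 3 subunits of complex III. Uqcr11 (chr10:80402997-80406830, minus strand), a supernumerary subunit of complex III, measured 198, 51.0 and 89.2 CPM in libraries 1, 2 and 3. Uqcr10 (chr11:4701973-4704342, minus strand), another of complex III, measured 222, 60.6 and 132 CPM. Both were highest in library 1 and lowest in library 2. At the other end Uqcrb, also of complex III, measured 29.3, 79.7 and 114 CPM, and Ndufs1, the largest subunit of complex I, 78.6, 136 and 147 CPM, both lowest in library 1. Members of one complex thus differed in the place of library 1, whereas library 2 was below library 3 in all 8 nuclear subunits of complex III. Of the windows of Uqcrb, 43.4% were found in other genes, against 10.9% for Uqcr11 and 0 for Uqcr10. None of these 4 passed the adjusted threshold (edgeR, adjusted p 0.319 to 0.9997).

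The ratios of library 1 to the other libraries moved with base composition and with exon length. Across the 14276 genes tested that are not described here, the ratio of library 1 to library 2 had a Spearman rho of 0.65 with the GC content of the exons, as a description across genes of the same libraries, which are not independent replicates. Across the 79 nuclear subunits it was 0.39. The values against library 3 were 0.54 and 0.46. With exon length, the rho of the ratio of library 1 to library 2 was -0.36 across the other genes and -0.38 across the nuclear subunits. Against library 3 the rho with length was -0.22 and -0.26. The median exon length was 983 bases for the nuclear subunits and 3329 for all genes tested. Between libraries 2 and 3 the rho with GC content was -0.25 across the other genes and 0.05 across the nuclear subunits. There the ratio of the nuclear subunits moved more with exon length (rho 0.49). The mitochondrial genes tested had GC contents between 33.1% and 39.9%, and the nuclear subunits between 38.4% and 63.4% with a median of 51.5%. Other genes with GC content no higher than 39.9% were also lower in library 1: the median ratio of 582 such genes was -1.54 against library 2 and -1.19 against library 3, and 73.4% and 59.6% of them were at least 2-fold lower.

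Smooth trends of the ratio with GC content and exon length, taken from the genes not described here, were then removed. The median over the 10 mitochondrial genes became -0.99 against library 2 and -0.98 against library 3, with 5 and 4 of the 10 at least 2-fold lower, where 3.96% and 5.32% of all genes tested were. Of the 582 other GC-poor genes, 8.42% were then at least 2-fold lower against library 2. The rRNAs lay near 0, at 0.10 (mt-Rnr2) and -0.23 (mt-Rnr1) against library 2. mt-Co1 and mt-Cytb, whose GC content lay within the range of most of those other genes, remained at -1.67 and -1.46 against library 2 and at -1.48 and -1.35 against library 3. The other 8 lay below the 1st percentile of GC content of those genes (37.7%), where the trend rests on few genes; among them mt-Nd6 was at -1.49 and mt-Nd3 at 2.29. With these trends as offsets in the goodness-of-fit test, mt-Nd3 was the only gene described here that was called, and mt-Nd5 and mt-Nd6 were not.

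For the nuclear subunits the removal took the median from 0.72 to 0.40 against library 2, with 13 of 79 at least 2-fold higher in library 1 (3.3% of all genes tested) and 4 of 79 at least 2-fold lower (3.96%), and from -0.58 to -0.36 between libraries 2 and 3. The direction of these 2 medians was kept. The choroid plexus and macrophage markers, which were lowest in library 1 like the mitochondrial genes, had medians of -2.96 (8 tested) and -4.13 (6 tested) against library 2 after the removal. All 8 choroid plexus markers were detected in library 1, none at 0, and all 8 macrophage markers likewise, from 2 counts for Aif1 to 86 for Lyz2. The part of these cells in the mitochondrial difference was not tested.

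**Figure D4:**
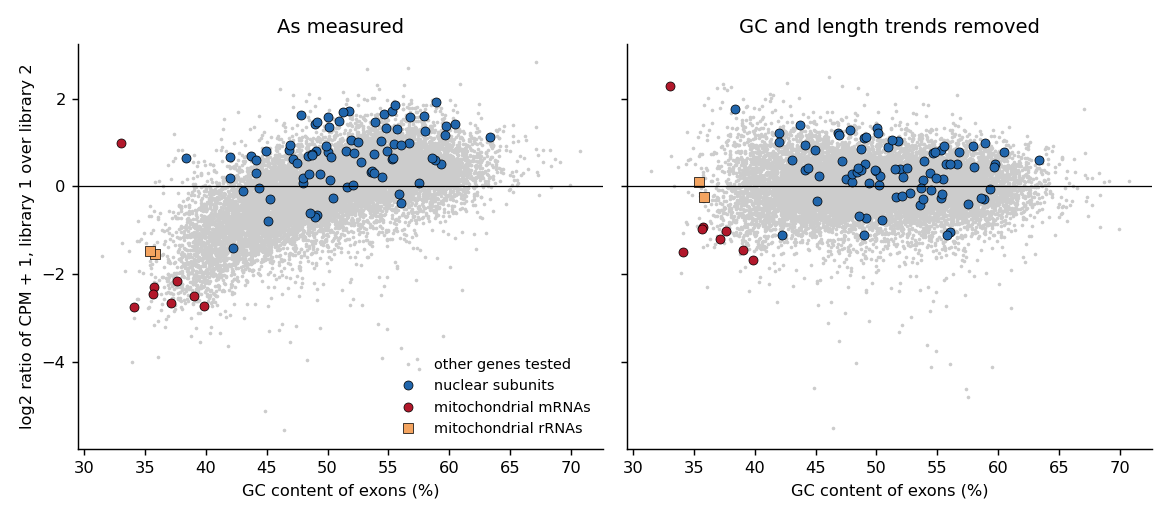
Log2 ratio of CPM + 1 of library 1 over library 2 against the GC content of exons, as measured (left) and with smooth GC and length trends removed (right), for all genes tested (grey) with nuclear subunits, mitochondrial mRNAs and mitochondrial rRNAs in colour. On the left mt-Nd3 lies at 0.997 and the other mitochondrial genes between -2.76 and -1.46. Other genes with GC content no higher than 39.9% have a median of -1.54 there. On the right the rRNAs lie near 0, mt-Nd3 at 2.29, and mt-Co1 and mt-Cytb at -1.67 and -1.46.

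Levels of different genes were compared per kilobase, as CPM per kilobase of the exons of protein-coding transcripts. The median nuclear subunit stood at 109 ± 28.5 CPM per kb (SD, n = 3), against 4.84 for the median gene tested (of the means of 3 libraries). The 8 mitochondrial mRNAs tested had a median of 619 ± 392 CPM per kb. That median leaves out the 5 mRNAs that did not pass the filter. It includes mt-Nd3, mt-Nd4 and mt-Co1, whose levels are uncertain because 98.0%, 62.2% and 51.1% of their windows are shared. By complex, the median levels per kb were 170 ± 26.2 (complex II), 142 ± 42.4 (III), 130 ± 24.1 (V), 88.9 ± 23.7 (I) and 86.9 ± 25.2 (IV). The order of complexes changed between libraries: complex II was first in libraries 1 and 2, and complex III in library 3. The medians of complex II (147 to 198 over the libraries) lay above those of complex I (64.1 to 111) and complex IV (57.9 to 104) without overlap, whereas the ranges of complexes II, III and V overlapped, as did those of I and IV. The median of complex IV depends on which genes are listed. Its set includes minor tissue isoforms at low levels, such as Cox6a2 at 0.992, Cox7a1 at 1.83 and Cox8b at 3.31 CPM per kb. The place of complex IV without such isoforms was not tested. With the exons of all annotated transcripts in place of protein-coding ones the medians were lower and their order changed: 109 (complex II), 77.5 (III), 66.0 (I), 63.5 (V) and 51.9 (IV). The complex I assembly factors, at a median of 14.4 ± 3.19, lay below all of the complexes in every library.

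**Figure D5:**
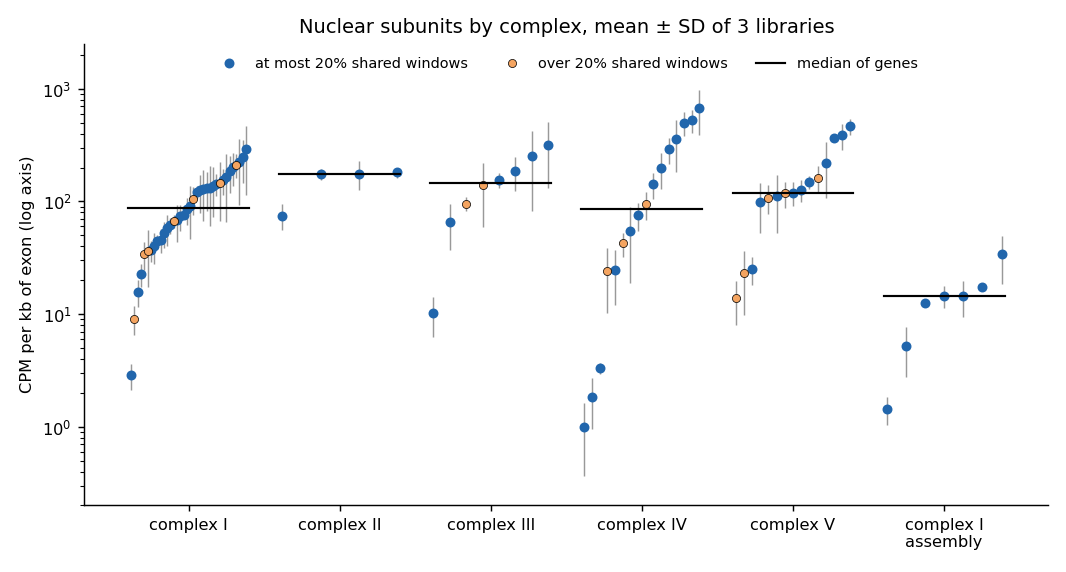
Mean level of each nuclear gene in CPM per kb of exon on a log axis, with SD over the 3 libraries, grouped by complex and sorted within each; black lines are medians over the genes' means. Orange points are genes with over 20% of their 50-base windows in other genes. Complex IV spans the widest range, from Cox6a2 at 0.992 to Cox4i1 at 682.

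Within complex I, the most abundant nuclear subunits per kb were Ndufa7, an accessory subunit, at 290 ± 175 and Ndufs7, which carries an iron-sulphur cluster, at 250 ± 104 CPM per kb (SD, n = 3). The lowest were Ndufb4, an accessory subunit, at 9.10 ± 2.59 and Ndufab1, the mitochondrial acyl carrier protein, at 2.88 ± 0.746. Of the windows of Ndufb4, 37.0% were found in other genes, and the annotated exons of Ndufab1 were long for a subunit, at 4473 bases. Among the assembly factors, Ndufaf3 at 34.2 ± 15.5 and Ndufaf7 at 17.4 ± 1.38 were highest, and Ndufaf4 at 5.22 ± 2.48 and Ndufaf6 at 1.44 ± 0.398 lowest.

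Complex II was the most even. Sdha, the flavoprotein that oxidises succinate, stood at 181 ± 18.4, Sdhb, the iron-sulphur subunit, at 177 ± 51.3, and the membrane anchors Sdhd and Sdhc at 175 ± 20.7 and 74.9 ± 19.3 CPM per kb. The first 3 did not differ beyond their spread. Sdha also varied little between libraries, at 575, 469 and 532 CPM.

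In complex III the small subunits Uqcr10 (318 ± 186) and Uqcr11 (253 ± 171) were the most abundant per kb. Uqcrq, at 66.0 ± 28.7, and Uqcrfs1, the Rieske iron-sulphur protein, at 10.3 ± 3.98, were the lowest. Uqcrfs1 had 172, 407 and 506 counts and no window in common with another annotated gene. It was lower than the other 7 subunits of this complex in each library.

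In complex V the catalytic beta subunit Atp5b stood at 466 ± 76.4 and Atp5g3, a gene for the c subunit of the rotor, at 386 ± 102 CPM per kb. The lowest were Atp5l, the g subunit, at 23.2 ± 13.4 and Atp5g2, another c subunit gene, at 14.0 ± 5.90. Windows found in other genes made up 84.8% of Atp5l and 38.4% of Atp5g2. Over all nuclear subunits tested, 17 of 79 (21.5%) had over 20% of windows in other genes, against 13.2% of all genes tested; their median level was 94.1 CPM per kb, and that of the other 62 was 127. The Spearman rho of level with the shared share was -0.19 across the 79.

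Complex IV is the complex with the most tissue isoforms, and the widely expressed form led in every pair. Cox4i1 (chr8:120668222-120674207, plus strand), at 682 ± 291 CPM per kb, made up 96.6% ± 0.931 of the summed level per kb of the Cox4i pair, with 3.38% ± 0.931 from Cox4i2, a form best known from lung. Cox6a1, at 527 ± 119.7, made up 99.8% ± 0.0970 of its pair, and the heart and muscle form Cox6a2 0.187%. Cox7a2 made up 99.1% ± 0.264, and the heart and muscle form Cox7a1 0.888%. Cox8a made up 99.3% ± 0.262 and the muscle form Cox8b 0.700%, while Cox8c, a testis form, had no count in any library. Cox7b2 had 0, 3 and 0 counts, against 1642, 1533 and 2403 for Cox7b. The part of 154 bases (20.1%) of the Cox4i1 exons that overlaps the gene Emc8 on the other strand is uncertain where counting ignored strand.

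Cox6b2 was the largest minor form. This gene (chr7:4751792-4753094, minus strand), known mainly as a testis isoform, had 1382, 816 and 589 counts, or 70.0, 27.5 and 22.8 CPM, in libraries 1, 2 and 3. It made up 15.0%, 16.4% and 8.12% of the level per kb of the Cox6b pair (13.2% ± 4.42), the remainder being Cox6b1 at 332, 117 and 215 CPM. None of its windows was found in another annotated gene, and no annotated exon of another gene overlapped its exons. Its share exceeded that of Cox4i2 in each library, and those of Cox6a2, Cox7a1, Cox7b2 and Cox8b as well; those are separate pairs, and this order was not tested.

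The 3 genes for the identical mature c subunit of ATP synthase depended on length. Per kb, Atp5g3 made up 90.4% ± 4.51, Atp5g1 6.16% ± 2.50 and Atp5g2 3.48% ± 2.01. As plain counts the shares were 65.3%, 29.2% and 5.54%. Atp5g3 led in each library on both scales.

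Promoters of nuclear subunits are known to hold sites for NRF1, for ETS family factors such as NRF2, and for YY1. RefSeq promoters on GRCm38.p6, from 250 bases before the start to 50 after it, were matched for 76 of the 91 nuclear genes, 67 of them subunits. A match to the NRF1 motif (GCGCA, any base, then GCGC) on either strand was found in 17 of the 67 (25.4%), against 11.0% of the promoters of all genes tested and 5.19% of all promoters in the table. A match to the ETS motif CCGGAAG was found in 16 (23.9%), against 18.9% and 9.93%. A match to the YY1 motif ANATGGCG or AANATGGC was found in 20 (29.9%), against 11.5% and 8.36%. The NRF1 motif is almost its own reverse complement and the 2 YY1 forms overlap, so each promoter was counted once per factor. Any of the motifs was present in 46 of 67 (68.7%), against 35.0% and 20.5%. The shares were not particular to the subunits. Among 68 promoters of mitochondrial ribosomal proteins, 67.6% held any of the motifs. By factor, 19.1% held an NRF1 match, 36.8% an ETS match and 29.4% a YY1 match. All of these are matches of letters, not measured sites.

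The matches were also counted by complex, with few promoters in some. NRF1 matches (11.0% of all genes tested) stood in 7 of 32 promoters of complex I, 2 of 3 of II and 1 of 5 of III. In complexes IV and V they stood in 1 of 13 and 6 of 14. ETS matches (18.9%) stood in 4 of 32, 2 of 3, 2 of 5, 3 of 13 and 5 of 14, in the same order. YY1 matches (11.5%) stood in 13 of 32 of complex I and in none of the 8 promoters of complexes II and III. They stood in 3 of 13 of complex IV and 4 of 14 of complex V. Differences between complexes were not tested. Examples with their motif in capitals are given for genes described above: Sdhd and Cox6a1, which held both NRF1 and ETS matches, Sdha, and Uqcr11, which had the highest ratio of library 1 to library 2. All 4 are on the minus strand, and the sequences are written along the gene.
Sdhd, NRF1, chr9:50603899-50603948: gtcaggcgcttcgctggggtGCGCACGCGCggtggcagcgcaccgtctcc
Sdhd, ETS, chr9:50603869-50603915: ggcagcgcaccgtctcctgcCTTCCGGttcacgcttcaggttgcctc
Sdha, NRF1, chr13:74350309-74350358: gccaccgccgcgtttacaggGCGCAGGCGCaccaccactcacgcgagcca
Cox6a1, NRF1, chr5:115349046-115349095: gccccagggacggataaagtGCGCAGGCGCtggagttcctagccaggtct
Uqcr11, ETS, chr10:80406861-80406907: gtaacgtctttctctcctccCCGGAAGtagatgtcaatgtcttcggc
The printed motif begins 79 and 46 bases before the start of Sdhd, 98 before that of Sdha, 117 before that of Cox6a1 and 66 before that of Uqcr11. Sdha held further NRF1 matches 55 and 10 bases before its start, and Cox6a1 held another 162 bases before its start. In Sdhd the ETS motif reads on the opposite strand.

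Genes that act beside the complexes were described by the same measures. The 77 mitochondrial ribosomal proteins, which are nuclear encoded and translate the mitochondrial mRNAs, had a median ratio of library 1 to library 2 of 0.47. Library 2 was below library 3 in 74 of them (49.5% of all genes tested). The 77 cytosolic ribosomal proteins tested had a median of 1.28, with 51 at least 2-fold higher in library 1 (5.4% of all genes tested). For 15 glycolytic enzymes the median was 0.61 and for 14 enzymes of the citric acid cycle 0.12. The 14 genes of mitochondrial DNA transcription and maintenance had a median of -0.03, with Mterf3, a regulator of mitochondrial transcription and ribosome assembly, the most abundant per kb at 31.5, 52.2 and 58.5 CPM. None of these genes was called by edgeR. An unadjusted p under 0.05 in the goodness-of-fit test was found for 22 of the 77 cytosolic ribosomal proteins. It was found for 1 of the 77 mitochondrial ribosomal proteins and 1 of the 14 enzymes of the citric acid cycle, against 7.04% of all genes tested.

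The nuclear regulators of this gene set were measured at low to moderate levels. Nrf1 stood at 23.9, 31.1 and 32.2 CPM in libraries 1, 2 and 3, Gabpa, the DNA-binding part of NRF2, at 20.5, 42.7 and 32.6 CPM, and Yy1 at 4.97, 13.8 and 7.50 CPM. The coactivator gene Ppargc1a stood at 2.33, 9.44 and 6.38 CPM. These 4 were lowest in library 1, but the list of 8 was mixed: 5 were lower in library 1 than in library 2 and 3 higher, among them Pprc1 at 40.3, 26.5 and 32.1 CPM and Esrra at 9.22, 5.86 and 7.66 CPM. None was called (edgeR, adjusted p 0.876 to 0.9997), and after removal of the GC and length trends the median of the 8 regulators against library 2 went from -0.55 to -0.21.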

How the data were processed

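RNA from 3 samples of 1 group was amplified with a template-switching kit and sequenced in read pairs of 50 bases, per the labels' protocols. The authors deposited raw counts per gene in whole numbers with 5 counter rows (45.6%, 39.1% and 39.6% of each total), which were left out of library sizes. The submitters' processing notes name HTSeq 0.5.3, DESeq2 1.22.1 and mm10; aligner, annotation and strand setting are not given in the sources used here. Replicates follow the labels' numbers.

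Identifiers were matched to GENCODE M21 on GRCm38 (46488 of 46983, and all 128 described genes). Counts were scaled by TMM in edgeR 4.0.16 (R 4.3.3), with filterByExpr at a minimum count of 10. An intercept-only negative binomial model gave a goodness-of-fit test, which used the trended dispersion and was adjusted by Benjamini-Hochberg over 14409 genes (threshold 0.05). Ratios used log2(CPM + 1), which understates changes of low genes; trends were removed with mgcv 1.9.3 fitted on 14276 other genes. Exon lengths are unions over protein-coding transcripts. DESeq2 1.42.0 size factors were an alternative. Gene totals ranged from 21002860 to 28704952 counts.

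Genes named are every mitochondrial mRNA and rRNA, the leading tRNAs, the 2 highest and lowest per kb in each nuclear group, the isoform sets, called genes, the leading context genes, and the extremes of the ratio of library 1 to library 2; Nrf1, Yy1, Ppargc1a and Esrra were named beyond that rule after their values were seen. Members and lists were chosen with earlier results of these data known.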

Additional observations from a re-analysis of the deposited data

How the results depend on the processing

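No paired analysis was possible because all 3 libraries are of 1 group. The count of all genes called (63) became 139 with every gene with any count, 187 with a mean of at least 10 counts, 101 with GC and length trends removed, and 13 to 29 when 1 library was left out. The count of described genes called, all of them mitochondrial (2), became 5 with plain library totals (mt-Co1, mt-Cytb, mt-Nd4, mt-Nd5 and mt-Nd6), 0 with a common dispersion, 1 with trends removed (mt-Nd3) and 0 without any 1 of the libraries; the cause was not tested. It was 0 for nuclear subunits in every alternative. The median mitochondrial ratio of library 1 to library 2 became -0.99 with trends removed. The median nuclear ratio of library 1 to library 3, 0.11, changed sign to -0.01 with plain totals. No other median ratio of the mitochondrial genes or of the nuclear subunits changed sign. Single genes and smaller lists did change sign with trends removed. Against library 2, for example, mt-Rnr2 went from -1.46 to 0.10. The median of the genes of mitochondrial DNA transcription and maintenance went from -0.03 to 0.28. Plain totals shifted the median of all genes by -0.12 and -0.10 (library 1 against 2 and 3). The nuclear share became 0.684% with counter rows in the total. Levels became 233 for complex II without division by length, and 66.0, 109, 77.5, 51.9 and 63.5 CPM per kb for complexes I to V in turn with exons of all transcripts, an alternative chosen after seeing the data, as was leaving out genes with over 20% shared windows. Without length, the shares of Atp5g1, Atp5g2 and Atp5g3 became 29.2%, 5.54% and 65.3%. The tRNAs and the mitochondrial mRNAs with at most 5 counts were too low to compare between libraries.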
